A study of Mus musculus with 5 samples.

Results

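The 10 Cyp4 fatty acid omega-hydroxylase genes described here were followed in mouse liver tumours: Cyp4a10, Cyp4a12a, Cyp4a12b, Cyp4a14, Cyp4a31, Cyp4a32, Cyp4b1, Cyp4f13, Cyp4f14 and Cyp4v3. They were taken by symbol from a named list of Cyp4a, Cyp4b, Cyp4f and Cyp4v enzymes and make up 10 of the 22287 genes in the study's table, which holds another 10 Cyp4 genes. The tumours came from C57BL/6 mice given DEN, a chemical that damages DNA in hepatocytes, and CCl4, which injures the liver repeatedly, over 5 months. One genotype was lnc-CTHCC-/- (KO, 3 libraries), named for a long non-coding RNA, and the other was wild type (WT, 2 libraries). Both genotypes had received DEN and CCl4, and no liver without tumour was analysed here. How the KO allele was made, and whether animals were pooled, are not given in the labels. The lnc-CTHCC transcript was not analysed here, so the genotypes are taken as labelled.

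CYP4 enzymes are microsomal cytochromes P450 that add a hydroxyl group to the last carbon of fatty acids and eicosanoids. The omega-hydroxy acids are then oxidised to dicarboxylic acids, which peroxisomes shorten. In mouse liver, Cyp4a10 and Cyp4a14 are classic targets of PPARA, the nuclear receptor for fatty acids and fibrate drugs, while Cyp4a12a is best known for its male, androgen-dependent expression and for making 20-HETE from arachidonic acid. Cyp4f enzymes act on leukotrienes and long-chain fatty acids, Cyp4b1 activates certain lung toxins, and Cyp4v3 is the mouse counterpart of human CYP4V2, which is mutated in Bietti crystalline dystrophy of the retina.

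Levels are in FPKM, the fragments sequenced from a gene per kilobase of its length and relative to the size of the library, so those of different genes can be set side by side. Library values are given in the order KO 1, KO 2 and KO 3, and WT 1 and WT 2. The FPKM of a library summed to 526229 to 537958 in KO and 530213 to 552619 in WT, and the sequencing depth is unknown. Alb, serum albumin, took 14.6% to 15.6% of the sum in KO libraries, against 14.1% and 17.1% in WT libraries. Hepatocyte markers were abundant throughout, with 7 of 8 in the table and a summed level of 111000 to 112000 FPKM in KO, against 99700 to 130000 FPKM in WT. Transcripts of the Y chromosome were found in all libraries, with Ddx3y at 6.73 to 9.48 FPKM in KO and at 3.97 and 10.6 FPKM in WT. In bulk tumour RNA, fewer cells of a type and less RNA per cell cannot be told apart.

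The 6 Cyp4a genes and Cyp4b1 lie close together on chromosome 4, from Cyp4a12a at chr4:115299046-115332815 to Cyp4b1 at chr4:115624725-115647723, and some of the Cyp4a genes are near copies of each other (GRCm38, GENCODE vM21). Cyp4a12b is at chr4:115411624-115439034, Cyp4a14 at chr4:115486200-115496142, Cyp4a10 at chr4:115518264-115533649, Cyp4a31 at chr4:115563649-115579015 and Cyp4a32 at chr4:115600969-115621602. Cyp4f13 (chr17:32924688-32947402) and Cyp4f14 (chr17:32905070-32917342) are neighbours, and Cyp4v3 is at chr8:45304944-45333216. The coding sequences of Cyp4a12a and Cyp4a12b were 98.5% identical and shared an unbroken stretch of 342 bases. Cyp4a10 was 97.2% identical to Cyp4a32 and 96.6% to Cyp4a31, with shared stretches of 179 and 186 bases. Sequencing reads from such stretches cannot be assigned to a single gene, so the values of these 5 genes are uncertain as far as the counting split reads between copies. Cyp4a14 stood further off, at 75.9% identity to Cyp4a10, and Cyp4f13 and Cyp4f14 were 78.5% identical. The first 60 coding bases are printed to show how alike the copies are, with capitals where a base differs from Cyp4a10.
Cyp4a10: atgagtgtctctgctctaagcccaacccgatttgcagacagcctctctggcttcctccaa
Cyp4a12a: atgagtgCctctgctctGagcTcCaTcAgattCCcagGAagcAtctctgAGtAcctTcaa
Cyp4a12b: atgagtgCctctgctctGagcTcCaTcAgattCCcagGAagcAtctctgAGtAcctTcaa
Cyp4a14: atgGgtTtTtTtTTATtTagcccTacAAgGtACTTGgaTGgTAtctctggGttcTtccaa
Cyp4a31: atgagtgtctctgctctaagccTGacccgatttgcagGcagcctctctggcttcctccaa
Cyp4a32: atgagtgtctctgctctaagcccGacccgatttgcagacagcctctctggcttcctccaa
All these stretches lie in the first coding exon, at chr4:115518322-115518381 for Cyp4a10, chr4:115299128-115299187 for Cyp4a12a, chr4:115411683-115411742 for Cyp4a12b, chr4:115563717-115563776 for Cyp4a31 and chr4:115600975-115601034 for Cyp4a32, on the plus strand, and at chr4:115496054-115496113 on the minus strand for Cyp4a14. Cyp4a12a and Cyp4a12b carried the same 60 bases. Cyp4a32 differed from Cyp4a10 at 1 position, Cyp4a31 at 3, the Cyp4a12 pair at 15 and Cyp4a14 at 24.

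Of the promoters, those of Cyp4f13 and Cyp4f14 are shown because these neighbouring genes of chromosome 17 differed most plainly in how steady they were between libraries. The windows run from 250 bases before to 50 after the gene start (RefSeq, GRCm38.p6), at chr17:32947312-32947611 for Cyp4f13 and chr17:32917307-32917606 for Cyp4f14, both on the minus strand, and for Cyp4f14 this is the first of 4 windows listed. Capitals mark a CCAAT box, the letters bound by the factor NF-Y, which is read on either strand and appears here as its reverse complement.
Cyp4f13: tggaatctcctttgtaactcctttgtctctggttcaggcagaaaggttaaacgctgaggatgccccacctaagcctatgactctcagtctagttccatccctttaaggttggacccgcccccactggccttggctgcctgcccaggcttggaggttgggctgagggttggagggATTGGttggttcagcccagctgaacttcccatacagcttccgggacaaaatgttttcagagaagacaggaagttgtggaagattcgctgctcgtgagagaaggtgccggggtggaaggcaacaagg
Cyp4f14: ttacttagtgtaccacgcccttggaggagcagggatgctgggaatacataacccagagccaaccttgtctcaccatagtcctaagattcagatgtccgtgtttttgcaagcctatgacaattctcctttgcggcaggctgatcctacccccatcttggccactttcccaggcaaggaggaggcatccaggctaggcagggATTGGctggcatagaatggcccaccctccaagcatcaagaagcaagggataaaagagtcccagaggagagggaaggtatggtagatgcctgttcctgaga
The box began at -76 in Cyp4f13 and at -50 in Cyp4f14, counted from the gene start, and 37.9% of 27025 promoters hold one on either strand. A window was found for 5 of the 10 members, the others being Cyp4a32, Cyp4b1 and Cyp4v3. None was found for Cyp4a10, Cyp4a12a, Cyp4a12b, Cyp4a14 and Cyp4a31. The window of Cyp4a32 also held a CCAAT box, which began at -80, and those of Cyp4b1 and Cyp4v3 held no such box. In these 5 windows, 0 held AGGTCA, the half-site of PPARA and other nuclear receptors, which 16.0% of promoters hold on either strand. None held the direct repeat to which PPARA binds, AGGTCA copied after any single base, which itself holds the half-site and was found in 0.0444% of promoters. ATTGAT, core letters of the Onecut1 site, was in 0 of the 5 and is in 7.76% of promoters. For these motifs this says only that the letters are not in these windows.

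All 10 members had a mean of at least 1 FPKM over the 5 libraries and were tested. Cyp4v3 was the most abundant, at 44.2 ± 3.85 FPKM in KO (SD, n = 3) and 53.3 ± 11.7 FPKM in WT (SD, n = 2). Cyp4a31, Cyp4f13, Cyp4f14 and Cyp4a10 followed with means over the 5 libraries of 31.1, 21.4, 19.6 and 12.6 FPKM. Cyp4a12a, Cyp4b1, Cyp4a14, Cyp4a12b and Cyp4a32 were lower, with means of 6.5, 5.65, 3.55, 2.24 and 1.42 FPKM. Each gene's range over the libraries overlapped that of its neighbour in this order. Within libraries, Cyp4f14 was above Cyp4a10 in 5 of 5, while Cyp4a12a was above Cyp4b1 in 1 of 5, and the other neighbours kept their order in 3 or 4 of 5. All 10 together summed to 143, 112 and 204 FPKM in the KO libraries, against 122 and 178 FPKM in the WT libraries.

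**Figure D1:**
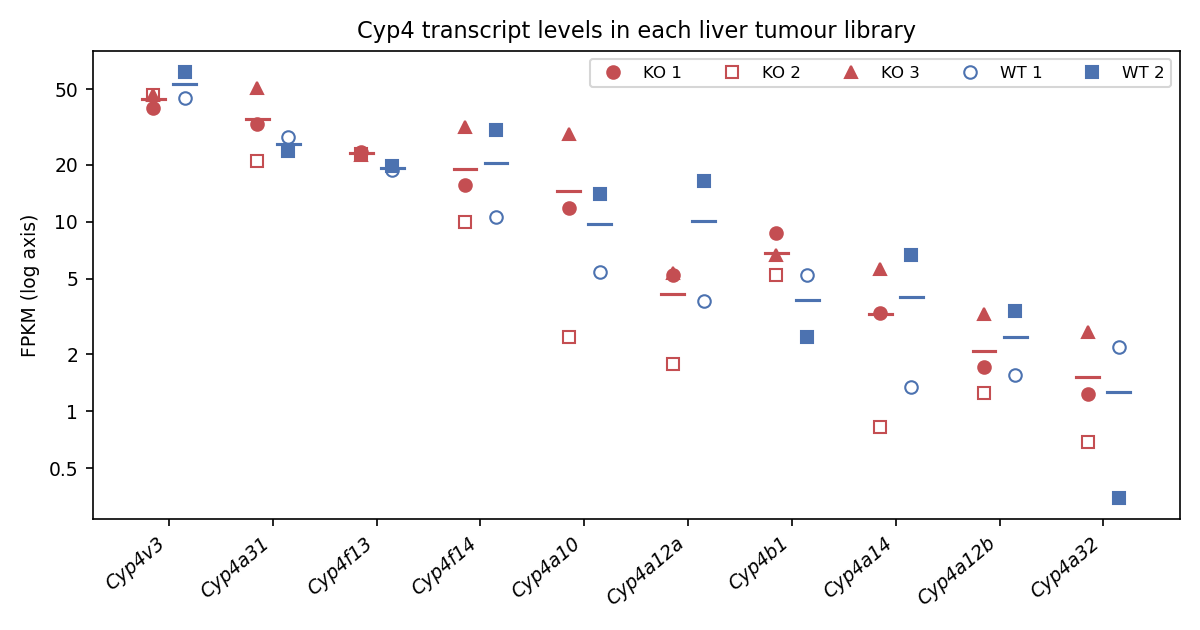
FPKM of each Cyp4 gene (log axis) in 3 KO libraries (red, left) and 2 WT libraries (blue, right), with bars at the genotype means and genes ordered by mean level. KO and WT points overlap for all genes but Cyp4b1 and Cyp4f13, and KO 2 and WT 1 (open symbols) lie lowest for Cyp4a10, Cyp4a12a, Cyp4a12b, Cyp4a14 and Cyp4f14.

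The comparison of KO with WT asks whether the omega-hydroxylases have other levels in tumours of KO mice. None of the 10 passed the test (limma on log2(FPKM + 1), Benjamini-Hochberg adjusted p = 0.999 for each), where 0.00987% of the 10132 genes tested did, which is the transcription factor Onecut1 alone. Onecut1 was at 11.57, 9.57 and 12.04 FPKM in KO, against 2.2 and 2.39 FPKM in WT (log2 difference 1.87, limma adjusted p = 0.047). Its call is not stable: under 15 alternatives the log2 difference was 1.14 to 2.21, and the adjusted p by limma, 6.07e-05 to 0.516, was under 0.05 in 5 of them. Of the members, 5 had a higher and 5 a lower fitted value in KO, with a median log2 difference of 0.04 for the members and 0.05 for all genes tested. By limma's unadjusted p, 1 of the 10 was under 0.05, Cyp4b1, against 3.23% of all genes. In the authors' deposited table, 0 of the 10 had a false discovery rate or a p-value under 0.05, where that rate was reached by 0.162% of all genes. No label ties the libraries of one genotype to different mice, so these p-values measure only the spread between these libraries, which may be technical, and with 2 libraries against 3 an exact permutation test cannot go below 0.1.

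**Figure D2:**
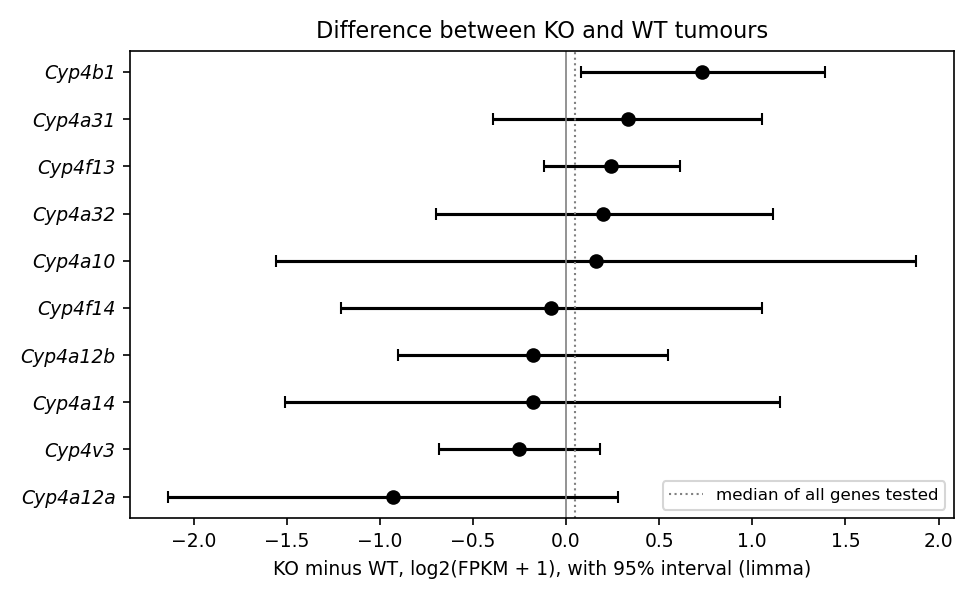
Difference of KO minus WT for each Cyp4 gene on the log2(FPKM + 1) scale, with limma's 95% interval and a dotted line at the median of all genes tested (0.05). The intervals span 0 for all but Cyp4b1 (0.08 to 1.39), and that of Cyp4a10 is the widest (-1.56 to 1.88).

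Cyp4a10, a lauric acid omega-hydroxylase, varied most. It was at 11.8, 2.46 and 29.1 FPKM in the KO libraries, against 5.44 and 14.1 FPKM in the WT libraries. KO 3 held the highest and KO 2 the lowest value, with both WT libraries between them, so that KO libraries alone spanned a ratio of 11.8. The log2 difference of 0.16 (SE 0.755, 95% interval -1.56 to 1.88) was small beside the SD within genotypes of 1.38, and 99.9% of the genes tested had a smaller SD. The difference was -0.57 without KO 3 and -0.45 without WT 1.

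Cyp4a14, which like Cyp4a10 is known for its response to fibrates, was at 3.29, 0.83 and 5.64 FPKM in KO, against 1.34 and 6.65 FPKM in WT. KO 2 and WT 1 were again lowest, and the genotypes overlapped. Its log2 difference was -0.18 (95% interval -1.51 to 1.15), and it was 0.67 without WT 2 and 0.34 without KO 2. Of the members, Cyp4f14 had the profile nearest to that of Cyp4a14, with a distance of 0.49 between log2 profiles centred on their own means over the 5 libraries.

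Cyp4a31 and Cyp4a32 are close copies of Cyp4a10 with less studied roles. Cyp4a31 was at 32.6, 20.9 and 50.7 FPKM in KO, against 28.0 and 23.6 FPKM in WT, and KO values lay on both sides of WT (log2 difference 0.33, 95% interval -0.39 to 1.05). Cyp4a32 was at 1.24, 0.69 and 2.61 FPKM in KO, against 2.19 and 0.35 FPKM in WT. It was the Cyp4a gene with its lowest value in WT 2, where Cyp4a10 was high. Summed over the 3 copies, which does not depend on how reads were split among them apart from gene length, the level was 45.6, 24.0 and 82.3 FPKM in KO, against 35.6 and 38.0 FPKM in WT. KO values again enclosed the WT values (log2 difference 0.28, 95% interval -0.65 to 1.21, limma adjusted p = 0.999), and the difference was -0.15 without KO 3. Cyp4a10 made up 25.8%, 10.2% and 35.3% of that sum in KO libraries, against 15.3% and 37.0% in WT libraries. Its share was lowest in KO 2 and WT 1, the libraries with the least Cyp4a10.

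**Figure D3:**
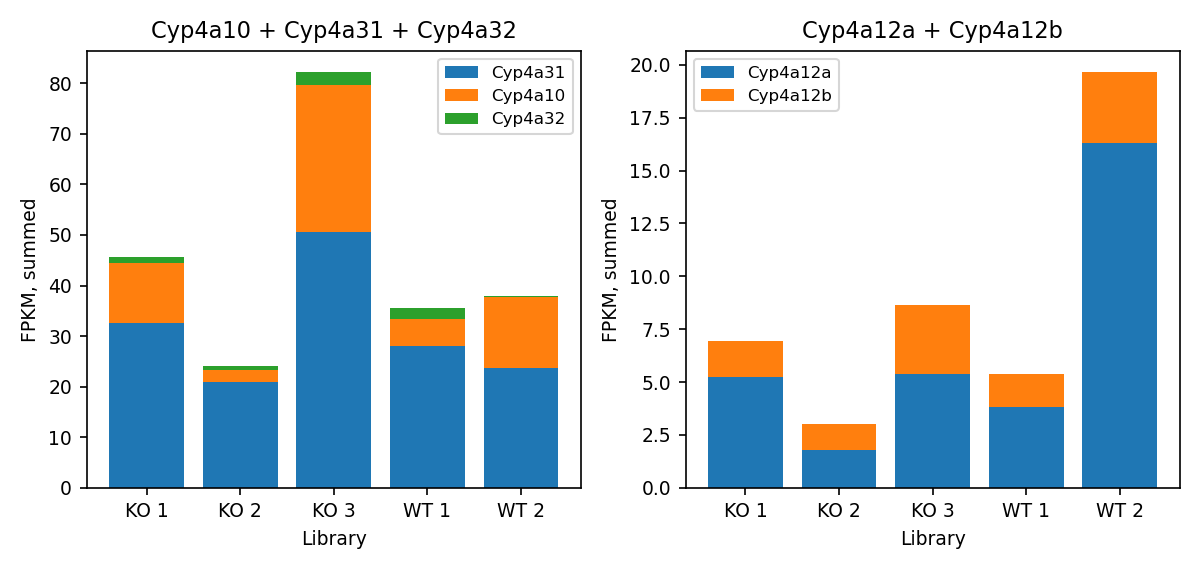
Summed FPKM of the near-identical copies Cyp4a10, Cyp4a31 and Cyp4a32 (left) and Cyp4a12a and Cyp4a12b (right) in each library, with the KO libraries left of the WT libraries. The first sum is highest in KO 3 (82.3 FPKM) and lowest in KO 2 (24.0 FPKM), and the second is highest in WT 2 (19.7 FPKM).

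Cyp4a12a, the 20-HETE-forming enzyme of male mice, had the lowest fitted difference of the 10. It was at 5.24, 1.77 and 5.39 FPKM in KO, against 3.81 and 16.3 FPKM in WT. WT 2 stood above the other 4 libraries, and WT 1 lay within the KO range. The log2 difference was -0.93 (SE 0.532, 95% interval -2.14 to 0.28), and it was 0.00 without WT 2 and -1.85 without WT 1. Cyp4a12b was at 1.72, 1.25 and 3.26 FPKM in KO, against 1.56 and 3.39 FPKM in WT, with the libraries in the same order as for Cyp4a12a and Cyp4a14. The summed level of the pair was 6.96, 3.02 and 8.65 FPKM in KO, against 5.37 and 19.7 FPKM in WT (log2 difference -0.76, 95% interval -1.90 to 0.37, limma adjusted p = 0.999), and its difference was 0.09 without WT 2.

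Other male-biased liver genes were in part high in WT 2 as well, which held the highest value for 8 of the 12 tested (66.7%), against 35.0% of all genes. In the same 12, 8 had a lower and 4 a higher fitted value in KO, with a median log2 difference of -0.39 beside 0.05 for all genes, and 0 passed. Mup7, a major urinary protein chosen after its values were seen, was at 4.56, 1.80 and 7.42 FPKM in KO, against 2.70 and 20.3 FPKM in WT, in the same library order as Cyp4a12a. Cyp2d9, a male-biased P450, was at 119, 156 and 147 FPKM in KO, against 150 and 338 FPKM in WT. Cyp2u1, the list's smallest p (limma unadjusted p = 0.00904), was at 1.34, 1.58 and 1.16 FPKM in KO, against 2.24 and 3.42 FPKM in WT. Others of the list went another way. Ugt2b1, a glucuronosyltransferase, was at 53.13, 57.04 and 73.06 FPKM in KO, against 42.67 and 53.9 FPKM in WT, highest in KO 3. Serpina1e, a serine protease inhibitor, was at 4080, 1871 and 2875 FPKM in KO, against 3960 and 3900 FPKM in WT, highest in KO 1. Selenbp2, named after its values were seen, was lowest in WT 2, at 85.6, 113 and 97.8 FPKM in KO, against 80.9 and 80.7 FPKM in WT. The Y transcript Ddx3y was highest in WT 2 like Cyp4a12a. Other Y transcripts were not: Uty and Eif2s3y were highest in KO 3, and Kdm5d in KO 1. The part of Y transcripts in these values was not tested. Of 7 female-biased genes tested, 3 were higher, 4 lower and 0 passed, with a median of -0.29.

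Cyp4f14, an omega-hydroxylase of leukotriene B4, was at 15.6, 9.92 and 31.5 FPKM in KO, against 10.6 and 30.5 FPKM in WT. The libraries ran in the same order as for Cyp4a10, with KO 2 and WT 1 low and WT 2 and KO 3 high. The log2 difference was -0.08 (95% interval -1.21 to 1.05), and it was 0.64 without WT 2 and 0.28 without KO 2.

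Cyp4f13, its neighbour on chromosome 17, was far steadier. It was at 23.4, 22.9 and 22.5 FPKM in KO, against 18.8 and 19.7 FPKM in WT, and the lowest KO value exceeded the higher WT value. Among all genes tested, 9.78% were placed that way, and 2 of the 10 members were, so the share is not read as a result about the members. The SD of Cyp4f13 within genotypes was 0.03 on the log2 scale, where 0.345% of the genes had a smaller one. The log2 difference of 0.24 (95% interval -0.12 to 0.61) stayed at 0.21 to 0.28 with any library left out (limma's moderated SE 0.160, unadjusted p = 0.164).

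Cyp4b1, the P450 of lung that activates 4-ipomeanol, was the other member with no overlap. It was at 8.68, 5.24 and 6.65 FPKM in KO, against 5.22 and 2.47 FPKM in WT, where the lowest KO value and the higher WT value all but met. The log2 difference was 0.73 (SE 0.289, 95% interval 0.08 to 1.39), the 218th smallest p of all genes (limma unadjusted p = 0.0321, adjusted p = 0.999). It was 0.31 without WT 2 and 1.16 without WT 1. Of 6 markers of lung epithelium, 4 were at 0 in every library, among them Sftpb, Sftpc and Scgb1a1, and the summed level was 0.12 to 1.26 FPKM in KO, against 0.86 and 1.32 FPKM in WT. Kidney tubule markers were at 0 for 4 of 6, including Umod, Kap and Aqp2, and summed to 0.06 FPKM or less in each library. Of all genes tested, 61.4% had a higher fitted value in KO. Endothelial markers had higher fitted values in KO for 6 of 7 (summed level 61.8 to 90.6 FPKM in KO, against 58.4 and 67.8 FPKM in WT), with KO 1 highest as for Cyp4b1. Stellate cell and fibroblast markers did so for 6 of 7 (87.7 to 130 FPKM in KO, against 71.5 and 97.2 FPKM in WT). Macrophage and Kupffer cell markers did so for 6 of 7 as well. Their median log2 difference was 0.44, against 0.15 for endothelial and 0.12 for stellate cell and fibroblast markers. The part of any of these cells in the Cyp4b1 values was not tested.

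Cyp4v3 was at 39.7, 46.4 and 46.4 FPKM in KO, against 45.0 and 61.6 FPKM in WT. WT 2 was highest, and the other libraries lay close together. Its log2 difference was -0.25 (95% interval -0.68 to 0.18), and it was -0.03 without WT 2. The SD within genotypes was 0.21, the same as the median of all genes tested.

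Another 10 Cyp4 genes of the table were not members. Cyp4f15 was at 12.7, 13.6 and 19.6 FPKM in KO, against 12.1 and 16.9 FPKM in WT, highest in KO 3 as Cyp4f14 was. Cyp4f16 averaged 5.33 ± 0.31 FPKM in KO (SD, n = 3) and 5.34 ± 0.099 FPKM in WT (SD, n = 2), and Cyp4f17 averaged 1.78 FPKM in KO and 1.60 FPKM in WT. Cyp4f18, a leukotriene B4 hydroxylase of neutrophils, was at most 1.05 FPKM and was not tested. It was at 0.89, 0.48 and 0.66 FPKM in KO, against 0.93 and 1.05 FPKM in WT. Cyp4f39 and Cyp4f40 stayed at 0.04 FPKM or less, and Cyp4a29, Cyp4a30b, Cyp4f37 and Cyp4x1 were listed at 0 in all libraries.

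In 5 of the 10 members KO 2 and WT 1 were the lowest libraries, as in 26.6% of all genes tested. WT 1 by itself was the lowest library for 46.4% of all genes tested. Their median log2 difference of 0.05 became -0.07 without WT 1. The full order KO 2, WT 1, KO 1, WT 2, KO 3 was that of Cyp4a10 and Cyp4f14, and of 0.612% of all genes. These orders were counted after the values were seen and are a description. The genes with profiles nearest to Cyp4a10, the member with the largest SD, were Rgn, Cyp2c50, Cyp2e1, Mup11 and Pon1, at distances of 0.45 to 0.73 over the 5 libraries. Rgn, a calcium-binding protein of pericentral hepatocytes, was at 42.3, 13.5 and 80.4 FPKM in KO, against 21.3 and 53.8 FPKM in WT. Cyp2e1, the P450 of ethanol and of CCl4 activation, was at 159, 58.3 and 321 FPKM in KO, against 84.4 and 192 FPKM in WT. Both follow the order of Cyp4a10 library by library. Rgn and Cyp2e1 are among 10 pericentral genes listed, and since they were picked for their likeness to Cyp4a10, the list is summed without them. The other 8 summed to 63.1, 70.2 and 71.6 FPKM in KO, against 48.7 and 87.6 FPKM in WT, which is not the order of Cyp4a10. Cyp1a2, named after its values were seen, was at 25.5, 43.9 and 22.7 FPKM in KO, against 22.8 and 36.3 FPKM in WT, highest in KO 2. Glul was at 27.1, 17.3 and 27.0 FPKM in KO, against 17.3 and 35.6 FPKM in WT. Oat was at 8.55, 7.07 and 18.8 FPKM in KO, against 6.63 and 14.2 FPKM in WT. Glul and Oat were lowest in KO 2 and WT 1, as Cyp4a10 was, so the order of the sum is not that of each gene. The rest of the 8 had means under 1 FPKM and were not tested. Of the 5 pericentral genes tested, 4 were higher and 1 lower in KO, and 0 passed. Periportal genes, summed, were lowest in KO 1, at 1350, 1640 and 2020 FPKM in KO, against 1750 and 2830 FPKM in WT. Not each of them was: Cps1 and Hsd17b13, named after their values were seen, ran in the library order of Cyp4a12a and Cyp4a14. Of the 10 periportal genes, 10 were lower in KO and 0 passed, where 3912 of the 10132 genes tested were lower. By limma's unadjusted p, 4 of the 10 were under 0.05, against 3.23% of all genes. All KO libraries were below both WT libraries in 4 of the 10, against 5.29% of all genes. Hal, the histidine ammonia-lyase, was at 14.1, 18.1 and 28.3 FPKM in KO, against 46.0 and 58.6 FPKM in WT (limma unadjusted p = 0.000762, adjusted p = 0.643).

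**Figure D4:**
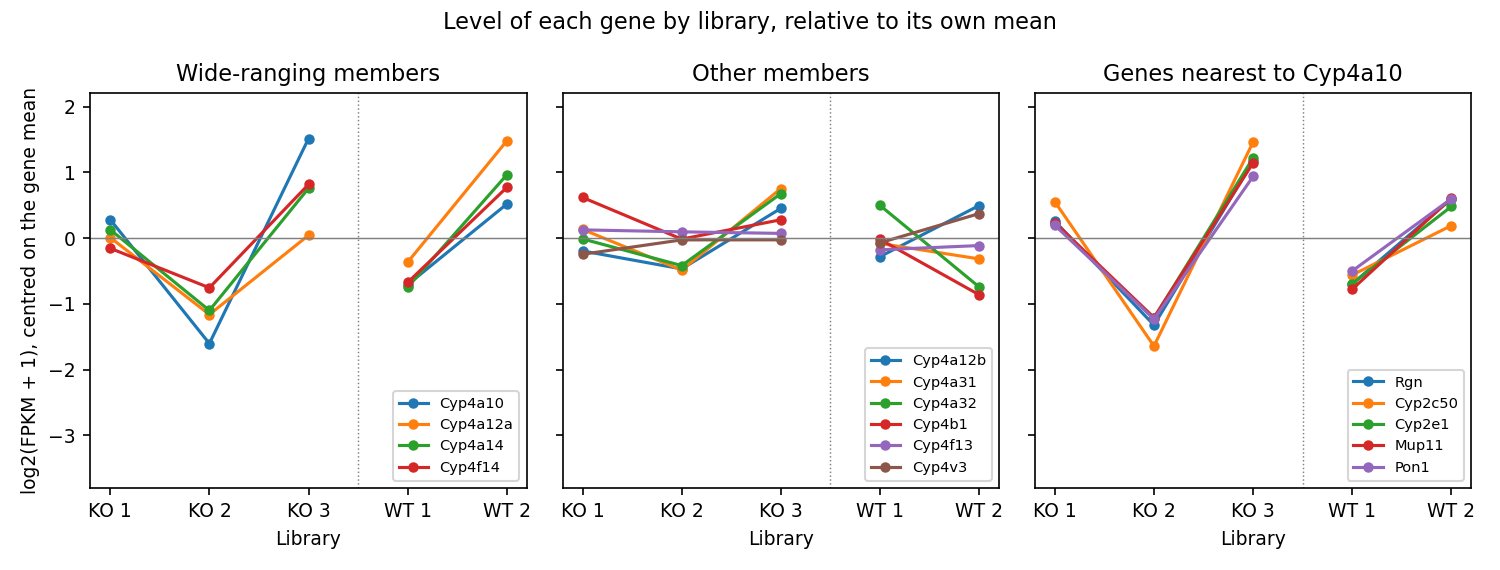
Level of each gene in each library as log2(FPKM + 1) minus its own mean over the 5 libraries, for the 4 members with the largest SD within genotypes (left), the other members (middle) and the 5 genes nearest to Cyp4a10 (right), with KO libraries left of the dotted line and WT libraries right of it. The left and right panels dip in KO 2 and WT 1, while Cyp4f13 in the middle panel is nearly flat.

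Markers of other cells moved with this order in part. Macrophage and Kupffer cell markers, 7 of 7 tested, summed to 94.1, 46.6 and 116 FPKM in KO, against 63.7 and 64.6 FPKM in WT. Cholangiocyte markers, 4 of 6 tested, summed to 334, 154 and 348 FPKM in KO, against 150 and 423 FPKM in WT, nearly all of it Spp1. Epcam of that list was also lowest in WT 1 and KO 2, but its other tested markers went another way. Krt19 was highest in KO 2, at 1.49, 1.81 and 1.05 FPKM in KO, against 0.61 and 1.56 FPKM in WT. Sox9 was highest in WT 1, at 2.33, 1.90 and 1.31 FPKM in KO, against 2.56 and 1.09 FPKM in WT. Neutrophil markers, 2 of 7 tested, summed to 4.27 to 6.54 FPKM in KO, against 5.29 and 5.60 FPKM in WT. No marker of these 3 lists was at 0 in every library. Their part in the Cyp4 values was not tested.

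Ppara, the receptor that controls Cyp4a10 and Cyp4a14, was at 18.1, 19.2 and 21.9 FPKM in KO, against 18.3 and 27.7 FPKM in WT, and did not pass the test. It varied far less between libraries than Cyp4a10. Of 13 PPAR genes and cofactors, 11 were tested, 6 higher and 5 lower in KO, and 0 passed. Pparg was at 3.09, 4.03 and 3.45 FPKM in KO, against 2.55 and 1.71 FPKM in WT (limma unadjusted p = 0.0281, adjusted p = 0.999), and the genotypes did not overlap.

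Of 32 PPARA target genes outside the Cyp4 family, 31 were tested and Aqp3 was listed at 0. None passed and none had an unadjusted p under 0.05 by limma, while 26 had a higher and 5 a lower fitted value in KO (83.9% higher, against 61.4% of all genes), with a median log2 difference of 0.12 beside 0.05. The genotypes overlapped in every one of the 31, where they did not in 15.1% of all genes. KO 3 was the highest library for 21 of the 31 and for 4 of the 10 Cyp4 members, among them Cyp4a10, and for 8.89% of all genes. Ehhadh, a bifunctional enzyme of peroxisomal beta-oxidation, chosen after its values were seen, was at 32.6, 36.8 and 189 FPKM in KO, against 26.7 and 62.5 FPKM in WT. In Ehhadh KO 2 did not stand below KO 1, unlike in Cyp4a10 and Cyp4a14. In other targets it did: KO 2 and WT 1 were the lowest libraries for 14 of the 31 (45.2%), against 26.6% of all genes. Acot4 and Retsat, named after their values were seen, ran in the library order of Cyp4a10. Acot2, an acyl-CoA thioesterase, was at 1.54, 1.61 and 4.35 FPKM in KO, against 0.78 and 1.79 FPKM in WT, and Plin2, a lipid droplet coat protein, was at 303, 343 and 425 FPKM in KO, against 320 and 274 FPKM in WT.

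Enzymes around the omega-hydroxylases did not pass either. Of 17 genes that take omega-hydroxy acids through dicarboxylic acids to peroxisomal oxidation, which share Ehhadh and other genes with the PPARA targets, 13 were higher and 4 lower in KO, and 0 passed (median log2 difference 0.16). Aldh3a2, the fatty aldehyde dehydrogenase, was at 43.0, 30.9 and 44.1 FPKM in KO, against 31.2 and 32.0 FPKM in WT. Amacr, a racemase of branched fatty acids, had the list's smallest p (limma unadjusted p = 0.0561), at 14.2, 17.0 and 23.5 FPKM in KO, against 23.0 and 29.1 FPKM in WT. Por, the reductase that passes electrons to every microsomal P450, was at 86.9, 90.8 and 108 FPKM in KO, against 104 and 112 FPKM in WT. It and the 3 other electron partners, Cyb5a, Cyb5b and Cyb5r3, did not pass. Of 17 eicosanoid enzymes, 8 were tested, 3 higher and 5 lower in KO, and 0 passed. Alox5, which starts leukotriene synthesis, was at 7.71, 5.38 and 5.13 FPKM in KO, against 8.06 and 2.32 FPKM in WT, and Cyp2j5, an arachidonic acid epoxygenase, at 19.9, 17.2 and 32.9 FPKM in KO, against 22.4 and 41.6 FPKM in WT.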

How the data were processed

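RNA-seq libraries by Illumina's standard method were made from Trizol-extracted total RNA of 5 liver tumour samples, per the labels. Among tools, StringTie, HISAT2, limma, DESeq2 and bcl2fastq 2.0 appear in the submitters' processing notes, as does mm10, without roles; annotation and strandedness were not given in the sources used here. One deposited table holds the authors' FPKM per library, rounded to 2 decimals, with their mean FPKM, log2 fold change, p-value and false discovery rate, per the file headers. Depth is unknown and no count model was used. Genes with a mean of at least 1 FPKM (10132) were tested as log2(FPKM + 1) by limma 3.58.1 in R 4.3.3, with a mean-variance trend, 3 residual degrees of freedom and Benjamini-Hochberg adjustment at 0.05. This scale understates changes of low genes. The test was checked on simulated data. Coding sequences came from GENCODE vM21 transcripts and were aligned with Biopython 1.88. Groups and replicate numbers came from the titles. The members and gene lists were chosen with earlier results of these data known. Named were all members, other Cyp4 genes, up to 4 genes per list by p, a few fixed genes (of which Xist is not analysed here and another is not reported here) and the 5 genes nearest in profile to the most variable member. The CCAAT search was added after the promoters were read. Alternatives were pseudocounts of 0.1 and 5, other filters, 3 rescalings, no trend, robust estimation, the replicate number as a block, each library left out, and copies summed.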

Additional observations from a re-analysis of the deposited data

How the results depend on the processing

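Under all 16 alternatives 0 Cyp4 members were called, and the smallest adjusted p was 0.129, for Cyp4a12a with the replicate number as a block (log2 difference -1.13). With a mean of at least 5 FPKM, 7 members were tested. The count of genes called, 1 of all genes, was 0 with quantile normalization, median-ratio rescaling, a common sum, a mean of at least 5 FPKM, a pseudocount of 5 or no filter on expression, and 3 with robust estimation. It was 0 to 17 with 1 library left out, the 17 without WT 1. With the replicate block it was 62. Only KO 3 holds the number 3, so in that fit KO 3 adds nothing to the difference, and 1 residual degree of freedom is left. Onecut1 was not called in 10 of 15 alternatives, among them each with a KO library left out (adjusted p by limma 0.0994 to 0.516) and that without WT 2 (0.0974). Same-numbered KO and WT libraries had deviations from their genotype means correlated at 0.0884 (number 1) and -0.241 (number 2). With 2 WT libraries these deviations are exact opposites in WT, so the correlations cannot decide on a pairing. The KO libraries have 1 number more, and no label says that a number marks a shared animal. Whether same-numbered samples share more than a number is unknown.

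Directions turned for differences that did not pass. With the replicate block the log2 difference was -0.57 for Cyp4a10, -0.09 for Cyp4a32 and -0.15 for the sum of Cyp4a10, Cyp4a31 and Cyp4a32. These are the same values as without KO 3, which the block leaves unused. Leaving out 1 library, the range was -0.57 to 0.99 for Cyp4a10, -0.57 to 0.21 for Cyp4a12b, -1.03 to 0.67 for Cyp4a14, -0.42 to 0.82 for Cyp4a32 and -0.80 to 0.64 for Cyp4f14. It was -0.15 to 0.72 for the sum with Cyp4a10 and -1.61 to 0.09 for that of Cyp4a12a and Cyp4a12b. Cyp4a31, Cyp4b1, Cyp4f13 and Cyp4v3 kept their direction in all alternatives run, and Cyp4a12a ranged from -1.85 to 0.00 with 1 library left out. The cause of these turns was not tested. With 2 WT libraries and an SD within genotypes of up to 1.38 on the log2 scale, differences of the Cyp4a genes smaller than their intervals were not detectable.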
